A study of Schizosaccharomyces pombe with 4 samples.

Results

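Expression of 9 fission yeast genes linked to Loz1 response elements, short DNA sequences recognised by the zinc finger repressor Loz1, was compared between a loz1 deletion strain and wild type. The genes are mug15 (SPAC57A10.06), its8 (SPBC839.08c), dal2 (SPAC1F7.09c), SPAC683.03, SPAC4H3.01, SPAC4H3.17, SPAC1F12.10c, SPBC12C2.03c and SPBC12C2.14c. They were named by gene identifier, out of 7092 genes in the files, with their values in these libraries already known. Their differences between the strains are therefore given as a description, with no p-value. RNA was sequenced from 2 libraries of Schizosaccharomyces pombe labelled loz1 delta and 2 labelled wild type. Both strains grew in Edinburgh minimal medium low in zinc to which zinc was returned (100 mM as the labels print it, a unit that was not checked), to an OD600 near 6.0. Age, mating type, other alleles and the way loz1 was deleted are not given in the labels. The labels do not say whether libraries of 1 group are separate cultures. The p-values therefore cover only the spread between these libraries, which may be technical.

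Loz1 is known to repress genes of zinc acquisition and zinc sparing when zinc is plentiful. It acts through its response element in target promoters and also represses its own gene. When zinc is scarce the repression is relieved, and cells raise zinc uptake through the plasma membrane importer Zrt1. The 9 genes have varied roles. The product of its8 adds a phosphoethanolamine group to the lipid anchor that tethers proteins to the cell surface. The product of dal2, allantoicase, breaks down allantoate and so takes part in the use of purines as a nitrogen source. RefSeq annotates SPAC1F12.10c as an NADPH-hemoprotein reductase, SPBC12C2.03c as a methionine synthase reductase and SPAC4H3.01 as a J-domain protein of the Caj1/Djp1 type, a family of Hsp70 partners. The gene mug15 takes its name from a screen for genes upregulated in meiosis. RefSeq calls SPAC683.03, SPAC4H3.17 and SPBC12C2.14c uncharacterized.

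The element was searched for by its published 11-letter consensus on both strands, in the 1000 bases before each start codon of the RefSeq sequence (build ASM294v3). It was found before 6 of the 9 genes, at 6 positions with 5 different spellings. These positions are shown because they are what the genes were grouped for. Each is printed 5′ to 3′ along the strand that carries the element, with the element in capitals and 8 bases on either side.
mug15 (chrI:1375633-1375643, plus strand): tatatgtgCGTAGATCATTaaaaatct
its8 (chrII:616679-616689, minus strand): agatcgagCGTAGATCATCtgaatttt
SPAC683.03 (chrI:4195597-4195607, minus strand): tacttcaaCGCAGATCATTcgtcgatc
SPAC1F12.10c, nearer (chrI:3821614-3821624, plus strand): gtgttatcCGTCGATCATTtttctaga
SPAC1F12.10c, farther (chrI:3821925-3821935, minus strand): tttccactCGCAGATCATTcttggctt
SPBC12C2.03c and SPBC12C2.14c (chrII:2472748-2472758, plus strand): atctgaatCGTCGATCTTTgcgtcatt
The spelling before SPAC683.03 and the farther one before SPAC1F12.10c have the same 11 letters. SPBC12C2.03c and SPBC12C2.14c are transcribed away from each other and share 1 element.

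The distance from the element to the start codon ranged widely. It was 34 bases for SPAC683.03, 212 for its8 and 228 for the nearer element of SPAC1F12.10c, whose farther element was 539 bases away. The shared element was 691 bases before SPBC12C2.14c and 871 before SPBC12C2.03c, and that of mug15 was 943 bases away. In RefSeq the elements of mug15, its8 and the SPBC12C2 pair lie within annotated long non-coding RNAs (SPNCRNA.2598, SPNCRNA.4801 and SPNCRNA.5677). The other 3 positions lie between annotated genes.

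Beside SPAC683.03 the search found more than the full element. The 63 bases that end with its start codon (chrI:4195582-4195644, plus strand) are shown because they hold a pair of close matches to a looser 10-letter pattern (CG, any 2 letters, GATC, any letter and T). Both matches, in capitals, are on the minus strand, so they appear as the reverse complement.
SPAC683.03 upstream: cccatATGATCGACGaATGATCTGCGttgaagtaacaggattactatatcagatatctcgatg
The matches lie 34 and 45 bases before the start codon, and the nearer is part of the full element.

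**Figure D1:**
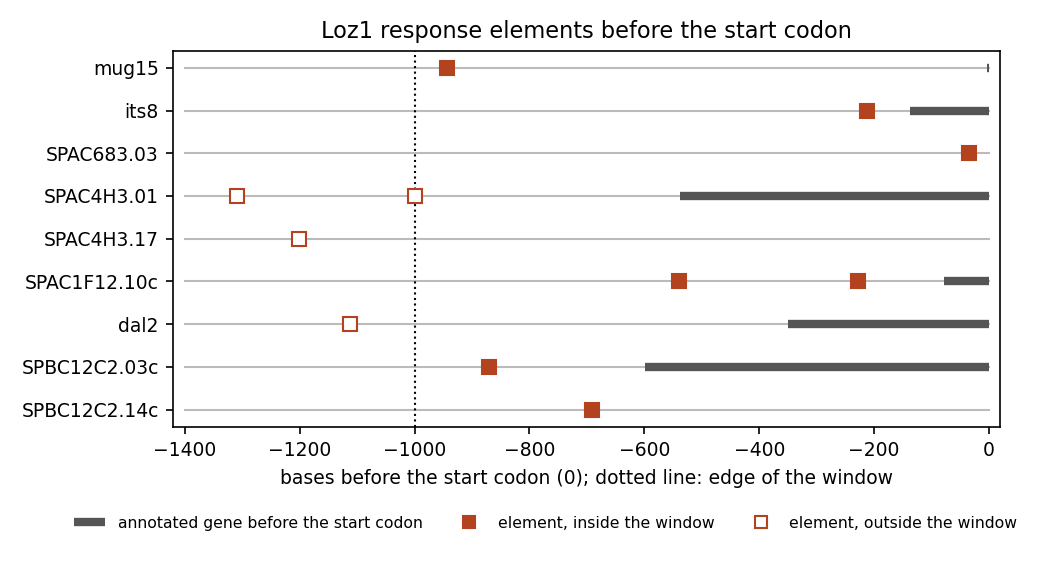
Positions of the Loz1 response element before each of the 9 genes, as bases before the start codon in RefSeq. Filled squares lie wholly inside the 1000-base window (dotted edge), open squares do not, and grey bars are annotated gene before the start codon; SPAC683.03 has the nearest element and mug15 the farthest inside the window.

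The remaining 3 genes, SPAC4H3.01, SPAC4H3.17 and dal2, had no full element in that window. SPAC4H3.01 lies next to SPAC1F12.10c on the other strand, and both elements of that gene also lie before SPAC4H3.01. They are 999 and 1310 bases from its start codon, so the nearer is not wholly inside the window. The nearer is 461 bases from its RefSeq gene start, but within the span of the SPAC4H3.01 transcript in the files. For dal2 the nearest upstream element was 1112 bases from the start codon, inside the coding sequence of its neighbour SPAC1F7.10. For SPAC4H3.17 it was 1201 bases away, inside the coding sequence of SPAC4H3.01. A shorter core, GNAGATC or GNCGATC, was also not found in the 1000 bases before these 3 genes. No match says only that these letters are not in the window.

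The full element is uncommon before genes, though its parts are not. Of 5106 protein-coding genes, 51 (0.999%) had it in the 1000 bases before the start codon, among them the 6 listed genes. The 10-letter pattern occurred before 204 genes, and the short core before 1487 (29.1%). On chromosomes I, II and III the 3 patterns matched 181, 763 and 6065 times. The full pattern is contained in the second, and the second overlaps the core, so these are not separate counts.

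The libraries and the targeted gene set limits on all directions given here. Depth could only be estimated, from Cufflinks' bounds, at 1.74e+07 and 1.85e+07 fragments in the deletion-labelled libraries and 1.63e+07 and 1.64e+07 in wild type. Values are FPKM (fragments per kilobase of transcript scaled by sequencing depth), and differences are of log2(FPKM + 1), deletion minus wild type, with their standard error. The loz1 transcript was higher in the libraries labelled as its deletion, at 56.4 and 56.0 FPKM against 6.87 and 5.81, so directions hold for the libraries as labelled. Across 6315 genes tested the median difference was 0.13, a shift that every difference given here includes. Mating-type markers moved with the groups. The summed FPKM of 7 of 7 M-cell markers was 151 to 159 in the deletion-labelled libraries and 5001 to 18465 in wild type, and mat1-Mc and mat3-Mc were listed at 0 in deletion-labelled replicate 1. That of 3 of 3 P-cell markers was 245 to 275 against 6.79 to 7.13, with SPMTR.01 listed at 0 in wild-type replicate 1. The part of mating type in the values below was not tested. mat1-Mc was at 0 and 0.137 FPKM in the deletion-labelled libraries against 159 and 257 in wild type, and SPMTR.01 at 239 and 216 against 0 and 0.302. These markers split by group, so parts of mating type and of the deletion cannot be told apart. In such bulk samples fewer cells of a type and less RNA per cell cannot be told apart either.

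In the limma fit over all genes, 11.9% of genes were called higher in the deletion-labelled libraries at an adjusted p under 0.05. All 9 genes passed the filters and were among them, but they were chosen with these values known, so nothing is read from that count. With a library left out in turn, the differences ran from 1.15 at the lowest (SPBC12C2.03c) to 5.98 at the highest (SPAC4H3.17), also as a description. In all 9 both deletion-labelled libraries lay above both wild-type libraries, an order found in 44.7% of all genes tested. The opposite order was found in 21.6% of all genes and in 0 of the 9. Differences ran from 1.26 for dal2 to 5.85 for SPAC4H3.17, with a median of 2.18. The upper end depends on the constant added before the logarithm. With 0.1 added SPAC4H3.17 was at 9.15 and mug15 at 5.08, and with 5 added they were at 3.63 and 3.76. The corresponding values of SPBC12C2.14c were 4.09 and 2.67.

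**Figure D2:**
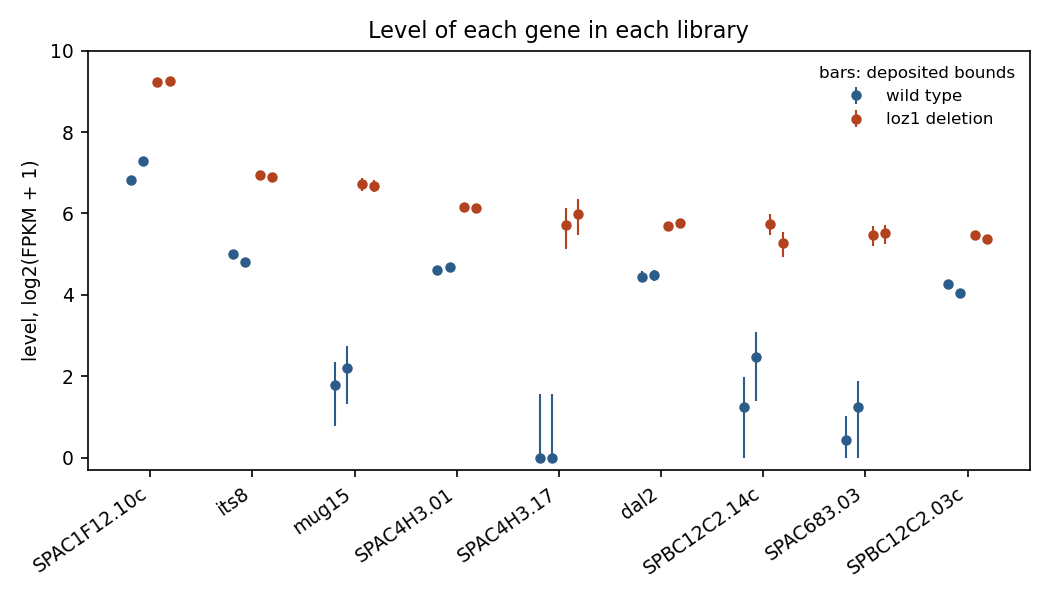
Level of the 9 genes in each of the 4 libraries as log2(FPKM + 1), a point per library, with bars for the bounds deposited with each value. For every gene both deletion-labelled libraries lie above both wild-type libraries, and SPAC1F12.10c is the highest in both groups.

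The 3 genes described first were near the floor of detection in wild type and at moderate levels in the deletion-labelled libraries. mug15 (chromosome I, 1376587 to 1377072, plus strand, 2 exons, 402 nt) was at 105 and 101 FPKM in the deletion-labelled libraries, compared with 2.41 and 3.59 FPKM for wild type. The wild-type values rest on about 8 and 12 fragments and the others on 366 and 380. The replicates lay close together, and the groups were far apart. The mean was 103 ± 2.23 FPKM (SD, n = 2) in the deletion-labelled libraries, 34.3 times that of wild type, and the log2 difference was 4.72 ± 0.18.

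SPAC683.03 (chromosome I, 4195642 to 4196021, plus strand, 1 exon, 380 nt), which has the element nearest its start codon, was at 43.1 and 44.6 FPKM in the deletion-labelled libraries. In wild type it was at 0.341 and 1.35 FPKM, on about 1 and 4 fragments. Wild type was thus near the detection limit, and the log2 difference of 4.66 ± 0.30 depends on the added 1. With 0.1 or 5 added it was 5.78 and 3.07.

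SPBC12C2.14c (chromosome II, 2471721 to 2472056, minus strand, 1 exon, 336 nt) was at 52.9 and 37.5 FPKM in the deletion-labelled libraries, compared with 1.38 and 4.55 FPKM for wild type. About 122, 91, 3 and 10 fragments stand behind these values. The replicates differed in both groups, though the groups did not overlap, and the log2 difference was 3.65 ± 0.44. Another full element lies inside its own coding sequence (RefSeq).

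SPBC12C2.03c, the methionine synthase reductase gene on the other side of the shared element (chromosome II, 2473006 to 2475652, plus strand, 2647 nt), was at 43.6 and 40.2 FPKM against 18.4 and 15.4 FPKM. Its mean was 41.9 ± 2.35 FPKM against 16.9 ± 2.09 (SD, n = 2), a log2 difference of 1.27 ± 0.14. The neighbours thus had like levels in the deletion-labelled libraries, where their libraries overlapped, and unlike levels in wild type, where SPBC12C2.14c was lower in both libraries. SPNCRNA.397, a short RNA annotated between them, was listed at 0 in 3 libraries and at 1582 FPKM in wild-type replicate 2, and was under the 200 nt needed to be tested.

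SPAC1F12.10c, the hemoprotein reductase gene with 2 elements (chromosome I, 3820527 to 3821537, minus strand, 3 exons, 796 nt), was the most abundant of the 9. It was at 602 and 606 FPKM in the deletion-labelled libraries, compared with 113 and 157 FPKM for wild type. The deletion-labelled libraries were nearly equal and the wild-type pair was not. Means were 604 ± 2.41 and 135 ± 31.0 FPKM (SD, n = 2), a log2 difference of 2.18 ± 0.17.

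SPAC4H3.01, the J-domain gene that begins 144 nt from it on the other strand (chromosome I, 3821682 to 3824461, 4 exons, 2613 nt), was at 70.4 and 69.1 FPKM against 23.4 and 24.9 FPKM. Replicates differed little in either group. The log2 difference was 1.49 ± 0.10.

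SPAC4H3.17 (chromosome I, 3822105 to 3822365, minus strand, 261 nt) lies wholly within the SPAC4H3.01 transcript of the files, on the opposite strand. It was at 51.8 and 62.3 FPKM in the deletion-labelled libraries, on about 33 and 43 fragments. In wild type it was listed at 8.46e-06 and 9.23e-06 FPKM, with upper bounds of 1.95 and 1.93 FPKM, so no fold is given. The log2 difference on the scale with 1 added was 5.85 ± 0.19. The strand setting of the authors' counting is not given in the sources used here, and without strand the reads of this pair cannot be told apart. In RefSeq SPAC4H3.01 starts later, and there SPAC4H3.17 lies outside it.

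its8, the lipid anchor gene (chromosome II, 613331 to 616647, minus strand, 2 exons, 3165 nt), was at 121 and 119 FPKM in the deletion-labelled libraries, compared with 30.8 and 26.9 FPKM for wild type. It had between 1392 and 6828 estimated fragments in each library. Means were 120 ± 1.56 and 28.9 ± 2.75 FPKM (SD, n = 2), a ratio of 4.16 and a log2 difference of 2.02 ± 0.11. Its element lies 74 bases before the RefSeq gene start.

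dal2, the allantoicase gene (chromosome I, 4241812 to 4243446, minus strand, 1 exon, 1635 nt), had a difference close to that of SPBC12C2.03c. It was at 50.3 and 53.5 FPKM in the deletion-labelled libraries, compared with 20.8 and 21.3 FPKM for wild type. The log2 difference was 1.26 ± 0.11. SPAC1F7.10 overlaps 1.59% of its transcript.

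In the deletion-labelled libraries the levels fell in a clear order only at the top. SPAC1F12.10c was above its8, its8 above mug15 and mug15 above SPAC4H3.01, each with both libraries above both of the next. Among the remaining 5 genes, the lowest with a mean of 41.9 FPKM, no gene was separated from the next in order. Both values of dal2 and of SPAC4H3.17 were above both of SPAC683.03 and of SPBC12C2.03c. The bounds overlapped, however, at 33.8 to 69.8 FPKM for SPAC4H3.17 and 35.7 to 50.6 for SPAC683.03 in deletion-labelled replicate 1. The place of SPAC4H3.17 is also uncertain because it overlaps SPAC4H3.01. In wild type the order was SPAC1F12.10c, its8, SPAC4H3.01, dal2 and SPBC12C2.03c, each separated from the next. mug15 and SPBC12C2.14c followed without separation, then SPAC683.03 and SPAC4H3.17.

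The nearest annotated genes on each side, and transcripts that overlap the 9 genes, were not used to choose them and could be tested. Of 15 such genes 12 passed the filters, and 5 rose and 0 fell in the deletion-labelled libraries, beside 11.9% and 4.37% of all genes tested. Their median log2 difference was 0.43, against 0.13 for all genes. The count and the median include loz1, the targeted gene, which Loz1 is known to repress. The rise of loz1 is therefore not independent evidence. pof1, also among the 5, is counted again below with the genes that have the element upstream.

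The largest of these rises was that of loz1 (chromosome I, 4192070 to 4195228, minus strand), by 2.97 ± 0.14 (limma, adjusted p = 0.00112). It is transcribed away from SPAC683.03 across a gap of 413 nt, and the element before SPAC683.03 lies 383 bases before the RefSeq start of loz1. Its call was kept whichever library was left out.

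Both neighbours of mug15 rose. pof1, the F-box protein of a ubiquitin ligase, was at 52.2 and 51.0 FPKM in the deletion-labelled libraries, compared with 19.3 and 16.5 FPKM for wild type. It rose by 1.48 ± 0.13 (limma, adjusted p = 0.00441). The element before mug15 also lies 749 bases before the RefSeq start codon of pof1, within the span of the pof1 transcript in the files. SPAC57A10.07, an uncharacterized gene 175 nt beyond the end of mug15 on the same strand, was at 39.3 and 40.9 FPKM against 8.77 and 11.3 FPKM. It rose by 1.91 ± 0.16 (limma, adjusted p = 0.00420). Without deletion-labelled replicate 1 or 2 the adjusted p was 0.0816 and 0.0818 for pof1 and 0.059 and 0.0699 for SPAC57A10.07.

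The smaller rises were less firm. ibp1, a Cdc25 family phosphatase gene whose end lies 11 nt from that of its8, was at 33.4 and 32.8 FPKM against 13.2 and 19.2 FPKM. It rose by 1.01 ± 0.20 (limma, adjusted p = 0.0344). SPAC1F7.10, the hydantoin racemase family gene beside dal2, was at 26.3 and 27.1 FPKM against 18.5 and 17.6 FPKM. It rose by 0.54 ± 0.12 (limma, adjusted p = 0.0431). Both calls were lost after median-ratio rescaling, at adjusted p = 0.0665 and 0.0765, and with no filter on low values, at 0.0754 and 0.0624. They were also lost without deletion-labelled replicate 1 or 2, at 0.285 and 0.28 for ibp1 and 0.429 and 0.429 for SPAC1F7.10.

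The other tested neighbours and overlapping partners, some upstream and some downstream of the listed genes, did not pass the test. gpi17, another lipid anchor gene, abuts SPAC1F12.10c and had a difference of 0.33 ± 0.12 (limma, adjusted p = 0.123). swc3, which overlaps the end of SPAC4H3.01, was at 19.7 and 19.2 FPKM against 16.1 and 20.6 FPKM, and its groups overlapped. mrp21 upstream of its8, ste20 beyond SPBC12C2.03c, SPAC1F7.11c beyond dal2 and SPNCRNA.969 beyond SPAC683.03 had differences between -0.27 and 0.27. SPBC12C2.04 beyond SPBC12C2.14c had a difference of 0.53 ± 0.13 (limma, adjusted p = 0.0536).

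**Figure D3:**
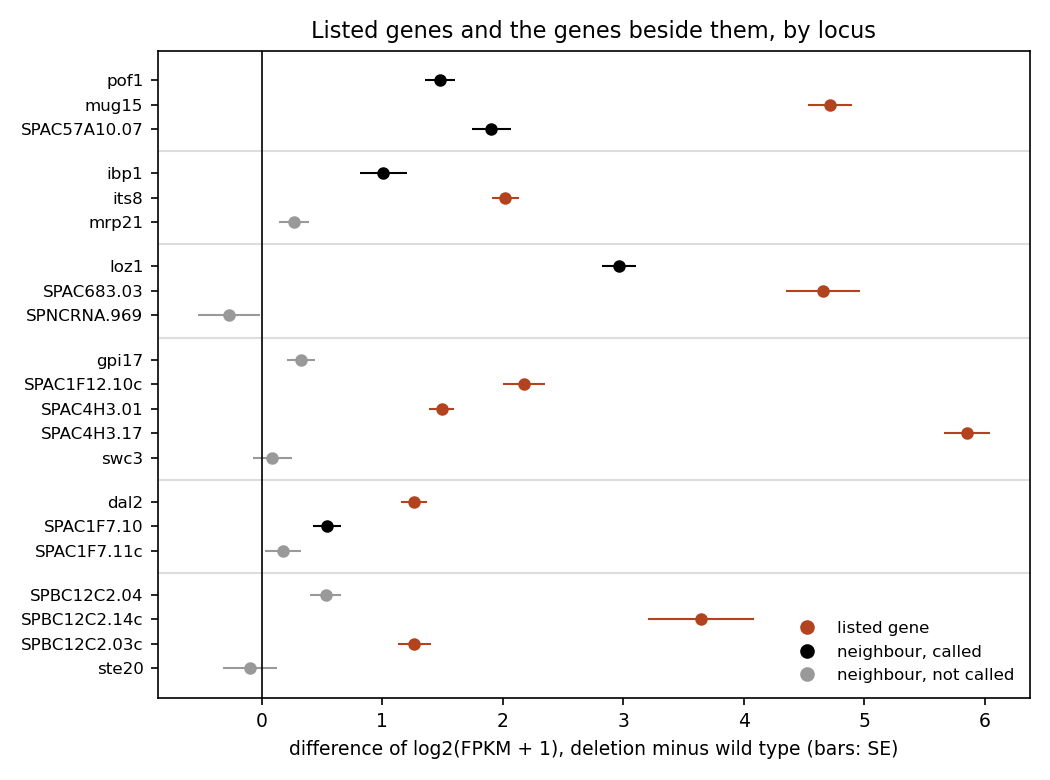
Log2 differences, deletion-labelled minus wild type, of the 9 genes and their tested neighbours and overlapping partners, grouped by locus; bars are standard errors of the limma model with n = 2 per group. loz1, pof1 and SPAC57A10.07 stand above 1.4, while swc3 and ste20 lie near 0.

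Other genes with the element upstream were chosen by sequence alone, which allowed a test. They include zrt1, a known target, and pof1, whose element is that of mug15, so the rises of these genes are not independent evidence. There were 45 in the 1000-base window, all of them tested, and 7 rose and 0 fell. That is 15.6% higher, where 13.1% of 4999 protein-coding genes were higher and 3.46% lower, so the share was near the background. Their median log2 difference was 0.21, against 0.13 for all genes. An element in this window thus went with a called rise in few of the other genes.

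The 7 were led by the zinc importer gene zrt1, with means of 971 ± 9.47 and 24.4 ± 9.37 FPKM (SD, n = 2) and a rise of 5.31 ± 0.26 (limma, adjusted p = 0.00127). The hexose transporter gene ght4 rose by 1.92 ± 0.29 and the peroxiredoxin gene tpx1 by 1.71 ± 0.23. pof1, the glycine decarboxylase gene gcv1 (1.20 ± 0.13), the guanine deaminase gene gud1 (1.07 ± 0.12) and the disaggregase gene hsp104 (0.39 ± 0.09) made up the rest. Of the 7, zrt1 was the gene called when deletion-labelled replicate 1 or 2 was left out. The call of hsp104 was also lost after rescaling (adjusted p = 0.139), and that of ght4 with no filter on low values (0.0572). Other transcripts cover 57.8% of ght4, 63.5% of gcv1 and 100% of gud1, so without a stated strand setting their values are uncertain. The elements of pof1, ght4, gcv1 and gud1 lie before the start codon but within the span of each gene's own transcript in the files.

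Identical elements were followed by unlike values. The spelling shared by SPAC683.03 and the farther element of SPAC1F12.10c also occurs before hsp104, set7 and tms1. Of these hsp104 rose by 0.39, while set7 and tms1 had differences of 0.25 and -0.62 that did not pass. The spelling before mug15 occurs before pof1, which is the same position. The spelling of its8 occurs also before SPBC776.06c (0.37, not called), and that of the nearer SPAC1F12.10c element before exg2 (0.33, not called). The spelling of the SPBC12C2 pair occurs before gud1, which rose.

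**Figure D4:**
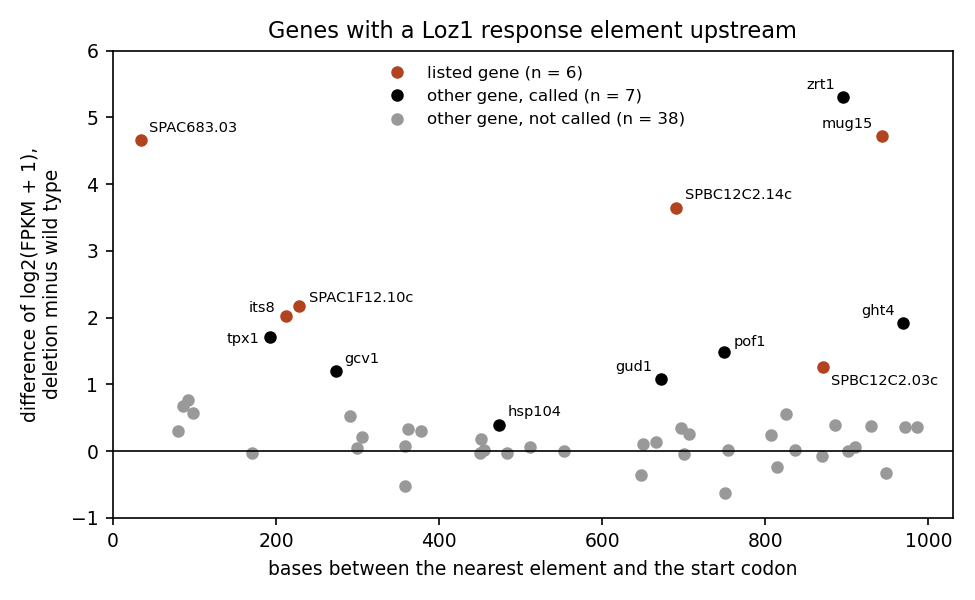
Log2 difference, deletion-labelled minus wild type, against the bases between the nearest full element and the start codon, for the 51 protein-coding genes with an element in the 1000-base window. The listed genes (n = 6) and 7 other called genes are named, and most of the other 38 lie near 0 at all distances.

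Around the gene start, from 250 bases before to 50 bases after it, 19 genes held the full element (0.372%), its8, SPAC683.03 and SPAC1F12.10c among them. Of the other 16, all tested, 5 rose and 0 fell, which is 31.2% beside 13.1% of protein-coding genes, with a median of 0.52. These were zrt1, tpx1, pof1, gcv1 and mub1, the last by 0.52 ± 0.12 (limma, adjusted p = 0.0468). As above, the rises of zrt1 and pof1 are not independent evidence. The gene mub1 was chosen after its value was seen, and its call was lost after rescaling (adjusted p = 0.0739) and without deletion-labelled replicate 1 or 2 (0.428 and 0.377).

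Zinc-responsive genes known from earlier Loz1 work mostly lacked a full element nearby. The 7 genes of that list were all called, 6 higher and 1 lower, with a median of 6.67. They include loz1 and zrt1 and were taken from earlier Loz1 work, so their direction is not independent evidence. The lower gene was adh1 (-3.42 ± 0.43), and other transcripts cover 93.2% of it. adh4, gcd1, SPAC977.05c, SPBC1348.06c and adh1 had their nearest upstream element 23171 bases or more from the start codon, and loz1 had the one it shares with SPAC683.03.

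Genes that share a pathway, product term or name with some of the 9 were read from lists. The lists were made by name or RefSeq product, each without the listed gene itself. A shared list does not show that genes work together. Over all genes tested 11.9% rose and 4.37% fell, and over protein-coding genes 13.1% and 3.46%, which are the background for each count below. In purine and allantoin breakdown and urea use, the pathway of dal2, 3 of 9 tested genes rose and 0 fell, with a median of 0.18. The urease gene ure2 was at 34.7 and 33.8 FPKM against 8.22 and 9.79, with a rise of 1.82 ± 0.14 (limma, adjusted p = 0.00378). The urease accessory gene ure6 rose by 0.76 ± 0.16 and the uricase gene uro1 by 0.74 ± 0.17. Both of these calls were lost after rescaling (adjusted p = 0.0784 and 0.0925). Other transcripts cover 99.3% of ure2 and 69.0% of ure6. The accessory gene ure7 was at 69.4 and 69.0 FPKM against 59.3 and 63.0 FPKM and did not pass.

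In lipid anchor synthesis, the pathway of its8, 2 of 18 tested genes rose and 0 fell, with a median of 0.30. They were gpi7, by 0.71 ± 0.14, and the transamidase subunit gene gaa1, by 0.65 ± 0.14, the latter lost after rescaling (adjusted p = 0.0793). Other transcripts cover 46.2% of gpi7. That share is near the background. SPCC1450.15 and gpi17 had the next smallest p and did not pass.

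Among hemoprotein reductases and their partners, the group of SPAC1F12.10c, 4 of 6 tested genes rose and 0 fell, with a median of 0.79. The cytochrome b5 genes cyb502 and oca8 rose by 1.31 ± 0.09 and 0.83 ± 0.13. The reductase genes ccr1, which feeds electrons to cytochrome P450, and cbr1, which serves cytochrome b5, rose by 0.74 ± 0.11 and 0.65 ± 0.11. The call of oca8 was lost after rescaling (adjusted p = 0.0575), and other transcripts cover 66.7% of cyb502.

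Genes that share the product terms of SPAC4H3.01 or the name of mug15 moved in both directions. Of 17 tested DNAJ domain and Hsp40 genes 3 rose and 2 fell, with a median of 0.13. They were SPBC543.02c (0.84 ± 0.12), scj1 (0.74 ± 0.11) and mdj1 (0.54 ± 0.13), and SPAC4G9.19 (-0.51 ± 0.09) and SPCC63.13 (-1.03 ± 0.23). The call of mdj1 was lost after rescaling (adjusted p = 0.108). Of 84 tested genes with a mug name 8 rose and 10 fell, with a median of 0.06. The 4 with the smallest p all fell, led by mug86, an acetate transporter gene, at 5.99 and 6.09 FPKM against 38.0 and 43.7 FPKM (-2.57 ± 0.14; limma, adjusted p = 0.00164), and mug168 (-1.57 ± 0.11). mug15 thus shares its name with genes that were called in either direction.

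After rescaling the higher calls were 1 in the purine list, 1 in lipid anchor synthesis, 3 among hemoprotein reductases, 2 among DNAJ genes and 4 among mug genes. With no filter on low values the purine list had 1 and lipid anchor synthesis 0. Without deletion-labelled replicate 1 or 2 each of these 5 lists had 0 higher calls, and mug86 was the gene still called among those named from these 5 lists. The filter also mattered for single genes, and without it the calls of gpi7, gaa1, ure6, uro1, mdj1 and SPCC63.13 were lost, at adjusted p = 0.0617 to 0.0837. Leaving out a deletion-labelled library leaves the spread to the wild-type pair, whose replicates had a median log2 distance of 0.22, against 0.09 for the deletion-labelled pair.

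The genes whose profile over the 4 libraries was most like the median of the 9 were found by Euclidean distance of centred log2(FPKM + 1), among 4790 protein-coding genes. They were SPAC212.08c, a cell surface protein gene with a lipid anchor, at a distance of 0.172, the glycerophosphodiester transporter gene tgp1 at 0.178, and the cell surface protein gene knh2 at 0.190. With the deletion-labelled libraries first, SPAC212.08c was at 9.90 and 10.9 FPKM against 1.13 and 1.32 FPKM. tgp1 was at 49.3 and 52.1 FPKM against 8.06 and 10.8 FPKM, and knh2 at 643 and 704 FPKM against 128 and 161 FPKM.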

How the data were processed

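The deposited files list 7093 transcripts of 7092 genes per library with an FPKM value and its bounds, made by Cufflinks per the file headers. The authors ran HISAT2, SAMtools, Cufflinks and Cuffdiff on build ASM294v2, per the submitters' processing notes. The sources used here do not give versions, the strand setting or the treatment of multiply mapped reads. Values are compared as deposited, and whole reads could not be recovered from them. Fragments were estimated from the bounds, taken as 2 SD of a count, and cover counting error only.

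Genes averaging 1 FPKM or more, with a transcript of 200 nt or more, entered a limma 3.58.1 fit (R 4.3.3) on log2(FPKM + 1), which understates changes of low genes. The prior had an intensity trend, and p-values were adjusted by Benjamini-Hochberg over 6315 genes and called under 0.05, with n = 2 per group. The model was tested on simulated libraries. The members and lists were chosen with earlier results of these data known.

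Elements were searched in RefSeq ASM294v3 with its own annotation, in which 98.0% of 5327 introns of the files recur and 6746 gene identifiers matched. Gene positions are those of the files. Named genes were loz1, the 9 genes, transcripts overlapping at least 20% of one, the nearest gene on each side, and the 10 largest called differences among genes with an upstream element, a mean of at least 5 FPKM and groups that do not overlap. Added to these were up to 4 members of each of 6 lists with the smallest p and the 3 protein-coding genes with the nearest profile. mub1, mdj1 and the genes sharing an element's spelling were named after their values were seen. The alternatives were other pseudocounts (0.1 and 5), filters, priors, windows and motifs, median-ratio rescaling, a replicate block, and each library left out in turn.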

Additional observations from a re-analysis of the deposited data

How the results depend on the processing

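Each of the 9 genes stayed higher in the deletion-labelled libraries under every alternative run, and their median log2 difference of 2.18 became 2.03 after median-ratio rescaling, which moved the median of all genes from 0.13 to -0.00. With a library left out it lay between 2.12 and 2.41. Over all genes 753 higher calls became 428 after rescaling, and 276 lower calls became 176 without a filter on low values. Leaving out a library gave 73 to 2115 and 40 to 880. The 5 higher neighbours became 3 without the filter and 3 after rescaling, or 1 to 7 (0 to 1 lower) with a library left out. Of other genes with an element upstream 7 were higher. There were 3 of 19 tested in a 500-base window, 30 of 195 (and 1 lower) for the 10-letter pattern and 236 of 1452 (and 45 lower) for the short core. These are 15.8%, 15.4% and 16.3%, against 15.6%, so before the start codon the counts moved with the number of genes searched. Around the gene start the shares were larger. They were 31.2% for the full element (5 of 16, 0 lower) and 28.4% for the 10-letter pattern (19 of 67, and 1 lower). For the short core the share was 22.7% (101 of 444, and 12 lower), against 13.1% of protein-coding genes. The shares around the gene start were not tested after rescaling or with a library left out. For the full element before the start codon, with 7 higher and 0 lower, rescaling gave 2 lower. Leaving out a library gave 1 to 20 higher and 0 to 3 lower. Over the 6 lists 26 higher calls became 17 after rescaling and 17 with the replicate block, or 6 to 42 with a library left out. The block left 2 of the 8 higher mug genes and 9 of the 10 lower. Over the 6 lists together the 13 lower calls became 8 under a prior without a trend, and their number shifted with a library left out. Same-numbered libraries did not deviate together (correlation -0.01 over 6315 genes), though this cannot show whether they were prepared together. The block gave 538 higher and 224 lower calls. It ended those of SPAC1F7.10, SPAC4G9.19, SPCC63.13, gaa1, uro1, hsp104, mub1 and mdj1 (adjusted p = 0.0529 to 0.093) among named genes. A prior without a trend ended those of ibp1, SPAC1F7.10, hsp104, ure6, gpi7, SPAC4G9.19, SPCC63.13, mub1 and mdj1 (0.0517 to 0.0852). Over all alternatives for other named genes, 382 values kept their direction and side of the threshold, 80 calls were lost and 7 gained. The sign turned in 4 values of uncalled genes, namely swc3 (-0.047 after rescaling, and -0.083 to 0.259 with a library left out), SPNCRNA.969 (-0.574 to 0.026 with a library left out) and ste20 (-0.396 to 0.201 with a library left out). Unless a value is given here, the cause of these shifts was not tested. Depth limits mug15, SPAC683.03, SPBC12C2.14c and SPAC4H3.17 in wild type, at 12 fragments or fewer, and 2 libraries per group limit every call.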

Other observations

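All 6 listed genes with an element in the 1000-base window have C or T as the third letter of each element. This was noticed after the elements were printed. Among the other 45 genes, 17 have an element with C or T there, of which 5 rose and 0 fell, with a median log2 difference of 0.30. The 5 include zrt1 and pof1, whose rises are not independent evidence, and hsp104, whose call was lost after rescaling (limma, adjusted p = 0.139). The remaining 28 have A or G there, of which 2 rose and 0 fell, with a median of 0.16. Over protein-coding genes 13.1% rose and 3.46% fell. The letter was picked after the elements of the listed genes were seen, and the difference between these groups was not tested.

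By distance, of the 19 other genes with an element under 500 bases from the start codon 3 rose (median 0.30), and of the 26 at 500 bases or more 4 rose (median 0.13). The background for both is the 13.1% of protein-coding genes that rose.

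ENSRNA049676580, a short RNA downstream of dal2, was at 260 and 151 FPKM in the deletion-labelled libraries, compared with 529 and 499 FPKM for wild type. It was too short to be tested.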
